A study of Mus musculus with 12 samples.

Results

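The genes described here are the mouse zinc-finger genes whose symbol is Zfp followed by a number, which code for proteins, and which averaged at least 5 CPM (counts scaled to the library total) over the 12 libraries of the series. There were 210 such genes, of 365 protein-coding genes of that name pattern and of 54532 genes in the table. They were chosen by name and by their mean level over all libraries, so these levels are a description and were not tested. All 210 passed the filter on low counts.

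The libraries were made from wild-type ATDC5, a mouse cell line labelled as cartilage progenitor cells and used as a culture model of chondrocytes. The exposure lasted 10 min, at 37 °C in 4 cultures, 40 °C in 4 and 44 °C in 4, which the design text calls biological replicates. All groups were grown at 37 °C before the exposure in the same high-sugar medium with serum, and the 37 °C group is the baseline. The sources used here do not give the interval between heating and RNA extraction, so fewer transcripts made and more transcripts lost cannot be told apart.

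Most Zfp proteins bind DNA through tandem C2H2 fingers, in which a pair of cysteines and a pair of histidines hold a zinc ion. Many also carry a KRAB domain, which recruits the co-repressor TRIM28 and with it histone methyltransferases and HP1 proteins, and this family is known for silencing transposable elements and for keeping genomic imprints. Many of their genes lie in tandem arrays that arose by duplication. Other Zfp proteins have no KRAB domain and act as transcription factors, RNA-binding proteins or ribosome-associated factors, and a few carry other kinds of zinc finger under the same name.

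By a profile search of the annotated protein translations, 110 of the 210 genes encoded a KRAB domain. A further 94 had C2H2 fingers without KRAB, and 6 had neither pattern, namely Zfp330, Zfp703, Zfp503, Zfp365, Zfp839 and Zfp36. The KRAB proteins had a median of 12 C2H2 fingers, with a range of 2 to 23, against a median of 8 and a range of 1 to 36 in C2H2 proteins without KRAB. Zfp142 had the most fingers, 36, followed by Zfp462 with 33. KRAB genes sat lower in level, with a median of 13.9 CPM against 32.9 CPM for C2H2 genes without KRAB. Of the KRAB genes 4 reached 50 CPM, as did 31 of the 94 C2H2 genes without KRAB.

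Counts summed to between 16269026 and 19506705 per library, and a member had between 49 and 5843 counts in a library. ATDC5 identity was checked on 9 chondrocyte markers, of which 5 averaged 1 CPM or more, at 37 °C Sox9 with 54.5 CPM, Sox5 with 8.21, Col11a1 with 4.45, Acan with 2.14 and Col2a1 with 1.22. Sox6 (0.0446 CPM) and Comp (0.0408 CPM) were near 0 at 37 °C, and the matrix genes Matn1 and Col9a1 had no count in any of the 12 libraries. Libraries of 1 temperature also differed among themselves. The first principal component of their deviations from group means, computed over genes that are no members and called the within-group axis here, took up 29.7% of that variance, with 44 °C replicate 1 lowest (-1.58) and 40 °C replicate 2 highest (1.55). Of 7 heat shock genes checked at 44 °C against 37 °C, 3 rose by edgeR, Hspa1a (4.61 ± 1.33 CPM at 44 °C, 0.776 ± 0.207 CPM at 37 °C), Hspa1b (18.8 ± 1.21 CPM at 44 °C, 8.68 ± 0.336 CPM at 37 °C) and Hspb1 (221 ± 22.8 CPM at 44 °C, 71.3 ± 7.77 CPM at 37 °C; SD, n = 4 each). Hsph1 (log2 fold change 0.00), Dnajb1 (0.03), Hspa8 (-0.15) and Hsp90aa1 (0.18) were not called.

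The most abundant members were genes without KRAB. Per kilobase of gene length, Zfp706 led with 48.9 CPM per kb, followed by Zfp106 (28.0), Zfp740 (26.2), Zfp598 (25.6), Zfp91 (21.3) and Zfp207 (21.0). Zfp106 encodes an RNA-binding protein, Zfp598 a ubiquitin ligase that senses collided ribosomes, Zfp91 a ubiquitin ligase of NF-kB signalling, and Zfp207 the spindle protein BuGZ, which is also a splicing factor. On the CPM scale, which is not divided by length, Zfp106 had the highest mean at 292 CPM. At the other end, the genes just inside the limit were Zfp938 (5.06 CPM), Zfp420 (5.16) and Zfp595 (5.19). Just outside it lay Zfp960 (4.99), Zfp94 (4.92) and Zfp799 (4.82).

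After 10 min at 44 °C, more of the expressed Zfp genes were called higher than lower compared with 37 °C, mostly by small amounts. In edgeR's quasi-likelihood test with Benjamini-Hochberg adjustment over all 14424 genes tested, 32 of the 210 members were called higher at an adjusted p under 0.05, which is 15.2%, against 6.58% of all genes. Called lower were 3 members, or 1.43%, against 7.11% of all genes, and 175 passed in neither direction (in either direction 13.7% of all genes passed). The median log2 fold change of the members was 0.14, against -0.00 for all genes tested, and 161 of the 210 were above 0, or 76.7%, against 50% of all genes. Groups did not overlap in the higher direction for 35 members (16.7%, against 8.62% of all genes) and in the lower direction for 5 (9.13% of all genes). The genes called higher had a median log2 fold change of 0.35, and 3 of the 32 reached 1.5-fold.

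**Figure D1:**
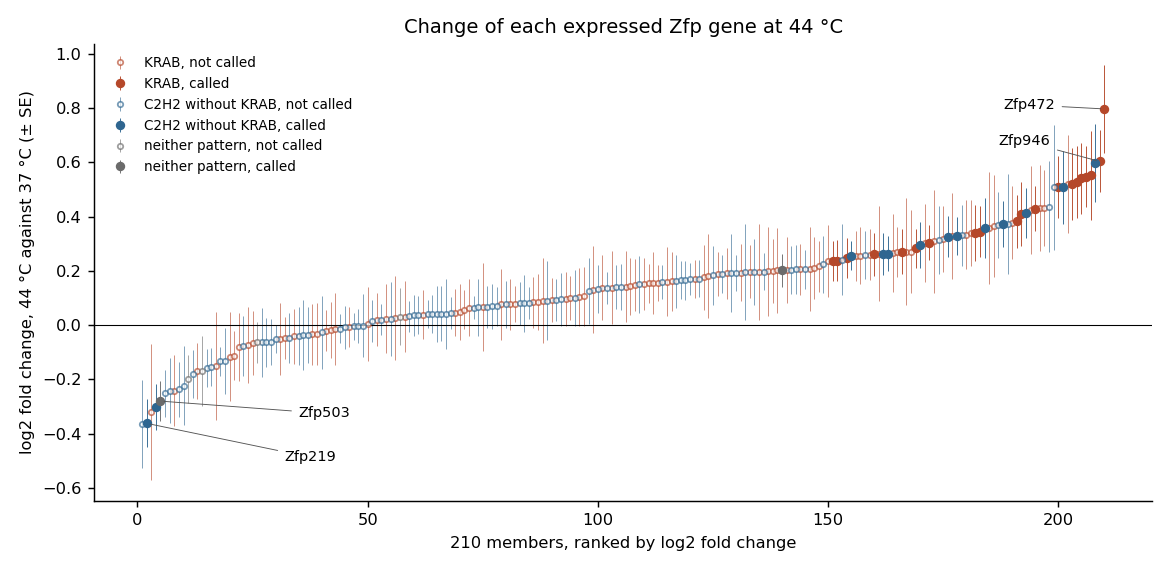
Each point is 1 of the 210 expressed Zfp genes, ranked from left to right by its log2 fold change at 44 °C against 37 °C, with its SE as a bar. Filled points passed the test, and the colours separate KRAB genes, C2H2 genes without KRAB and genes with neither pattern. Most points lie above 0, and the highest is Zfp472 at 0.80.

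The number of calls depended on single libraries. Without 44 °C replicate 1, 58 members were called higher, as were 11.7% of all genes. Without 44 °C replicate 2 there were 14 (2.84% of all genes), and without 44 °C replicate 4 also 14 (2.99% of all genes). Without 37 °C replicates 1, 2 or 4 there were 17, 16 and 17 (2.77%, 3.4% and 3% of all genes). The direction of the group as a whole moved less, since the median stayed between 0.115 and 0.166 when each library was left out in turn. Of the 32 genes, 31 remained called without 44 °C replicate 1 and 11 in all 12 such fits. In 32 of 32 genes the 40 °C mean lay between those at 37 °C and 44 °C. Choosing genes by a difference between 37 °C and 44 °C favours this order, so it is no test of a graded response.

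Some summed levels of markers of other cell types also differed between 44 °C and 37 °C. The 3 smooth muscle markers, of which Acta2 alone reached 1 CPM, summed to 69.7 to 74.3 CPM in the 44 °C libraries, against 111 to 128 CPM in the 37 °C libraries. The 6 fibroblast or mesenchymal markers, 4 of them at 1 CPM or more and Vim by far the highest, summed to 3358 to 3930 CPM at 44 °C, against 4263 to 4747 CPM at 37 °C. The 4 endothelial markers, 2 of them at 1 CPM or more, summed to 4.03 to 5.91 CPM at 44 °C, against 2.19 to 3.30 CPM at 37 °C. None of these 3 sums overlapped between 44 °C and 37 °C, and among blood markers Adgre1 had no count in any library. The sums of macrophage and blood, epithelial and neural markers did overlap between these temperatures. The smooth muscle sum was 123 to 165 CPM at 40 °C, reaching above the 37 °C libraries. Within the fibroblast list, Col1a1 and Col1a2 averaged higher at 44 °C than at 37 °C. All libraries are of the cell line ATDC5, so the sums are RNA levels in that line. They do not count smooth muscle, fibroblast or endothelial cells. The part of these sums in the Zfp result was not tested, and in bulk RNA fewer cells making an RNA and less RNA per cell cannot be told apart.

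Zfp472 had the largest called rise. It encodes a KRAB protein with 12 C2H2 fingers and lies on chromosome 17 (32965814 to 32979233, forward strand, mm10). It had 6.54, 9.29, 7.38 and 10.8 CPM in the 44 °C libraries, against 4.19, 4.73, 5.37 and 5.31 CPM in the 37 °C libraries. Every 44 °C library lay above every 37 °C library, with replicate 1 the lowest at 44 °C. The gene was 1.74-fold higher at 44 °C (log2 fold change 0.80 ± 0.163 SE, edgeR adjusted p = 0.00621) and was called in all 12 fits that left out 1 library.

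Zfp952, a KRAB gene with 9 fingers, lies downstream on the same strand (32993129 to 33005457) and was also called. It had 7.94, 9.84, 8.67 and 10.6 CPM at 44 °C, against 5.40, 6.31, 6.84 and 6.92 CPM at 37 °C. The groups did not overlap, and the log2 fold change was 0.54 ± 0.131 (edgeR adjusted p = 0.0153). Leaving out 37 °C replicate 1 (adjusted p = 0.0582) or 44 °C replicate 4 (0.0553) ended the call.

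The promoters of these neighbours, which were called together, are shown because they hold a stretch in common. The windows run from 250 bases before to 50 bases after the annotated start and come from RefSeq on GRCm38.p6, forward strand, at chr17:32965581-32965880 for Zfp472 and chr17:32992889-32993188 for Zfp952. Capitals mark the longest identical stretch, TCCAATAAGAAGC, which holds the CCAAT letters of a common core promoter element, and in Zfp472 also TTCACGAA, a match to the heat shock pair TTCNNGAA.
Zfp472: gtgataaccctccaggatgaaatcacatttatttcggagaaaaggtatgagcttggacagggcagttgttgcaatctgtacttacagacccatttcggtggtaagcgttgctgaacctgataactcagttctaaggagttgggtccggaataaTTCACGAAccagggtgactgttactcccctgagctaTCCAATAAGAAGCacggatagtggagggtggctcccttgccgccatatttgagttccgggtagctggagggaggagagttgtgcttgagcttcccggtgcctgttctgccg
Zfp952: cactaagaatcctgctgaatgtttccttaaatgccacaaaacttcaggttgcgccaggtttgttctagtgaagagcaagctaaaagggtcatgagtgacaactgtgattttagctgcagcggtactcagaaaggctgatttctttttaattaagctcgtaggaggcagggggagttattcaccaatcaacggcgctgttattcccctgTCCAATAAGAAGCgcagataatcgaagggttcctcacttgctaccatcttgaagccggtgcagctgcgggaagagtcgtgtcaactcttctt
The stretch was picked as the longest that these promoters share, so both hold it by choice and its rarity tests nothing. Its 13 bases stood in the promoters of 4 of 27025 genes (0.0148%) on either strand, the others being Aldh1a2 and Gna12. A match is a description of letters and not a measured binding site.

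Other KRAB genes made up most of the larger rises. Zfp946, on chromosome 17 (22424222 to 22456689) with 11 fingers, had 10.2, 9.47, 9.95 and 8.46 CPM at 44 °C, against 6.91, 6.68, 5.84 and 5.61 CPM at 37 °C. Here replicate 1 was the highest 44 °C library and the groups did not overlap (log2 fold change 0.60 ± 0.114, edgeR adjusted p = 0.00396). Zfp141, on chromosome 7, had 8.53, 10.9, 10.7 and 11.4 CPM at 44 °C, against 7.01, 7.46, 7.02 and 6.92 CPM at 37 °C (0.55 ± 0.112, edgeR adjusted p = 0.00617). Zfp748, a chromosome 13 gene with 23 fingers, averaged 20.7 ± 3.97 CPM at 44 °C and 14.6 ± 0.586 CPM at 37 °C (SD, n = 4 each, log2 fold change 0.51 ± 0.115, edgeR adjusted p = 0.0107). The groups of both genes were apart, and Zfp946, Zfp141 and Zfp748 were called in all 12 fits with 1 library left out.

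The rises of 3 further KRAB genes were as large and less stable. Zfp758 on chromosome 17 averaged 6.54 ± 1.17 CPM at 44 °C and 4.47 ± 0.516 CPM at 37 °C (SD, n = 4 each). Its log2 fold change of 0.55 ± 0.165 (edgeR adjusted p = 0.0396) lost its call without any 1 of the 37 °C libraries, without 40 °C replicate 3 and without 44 °C replicates 2 or 4, with adjusted p between 0.0501 and 0.133. Zfp560 on chromosome 9 averaged 8.50 ± 1.39 CPM at 44 °C and 5.91 ± 0.332 CPM at 37 °C (0.52 ± 0.133, edgeR adjusted p = 0.0198), and lost it without 37 °C replicates 2 or 4 and 44 °C replicates 2 or 4 (0.0532 to 0.0684). Zfp442 on chromosome 2 averaged 9.41 ± 0.772 CPM at 44 °C and 6.51 ± 0.990 CPM at 37 °C (0.53 ± 0.132, edgeR adjusted p = 0.0178), and lost it without 44 °C replicate 2 (0.06). Zfp442 shares over 10% of its transcript with another gene, so the division of its reads is uncertain.

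Among C2H2 genes without KRAB, Zfp35 and Zfp623 rose most. Zfp35, on chromosome 18 (23989632 to 24005376) with 17 fingers, had 17.5, 27.8, 23.9 and 27.3 CPM at 44 °C, against 13.3, 17.8, 17.8 and 15.1 CPM at 37 °C. Its 44 °C replicate 1 lay within the 37 °C range, and the other 44 °C libraries lay above it (log2 fold change 0.60 ± 0.144, edgeR adjusted p = 0.0153). Leaving out 37 °C replicate 1 or 4, or 44 °C replicate 2 or 4, ended the call (adjusted p 0.0504 to 0.0561). Zfp623 on chromosome 15 had 20.1, 30.5, 28.0 and 31.0 CPM at 44 °C, against 17.6, 22.5, 19.2 and 17.8 CPM at 37 °C, with the same overlap by replicate 1 (0.51 ± 0.134, edgeR adjusted p = 0.0234). Without 37 °C replicates 1 or 4, or 44 °C replicates 2, 3 or 4, its adjusted p lay between 0.0507 and 0.0772.

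Some smaller rises were steady, though not those of every abundant gene. Zfp330 and Zfp266, also called higher, held their calls in only 2 of the 12 fits with 1 library left out. Zfp622 held in 6 and Zfp451 in 7. Zfp462, which encodes a large chromatin-associated protein of embryonic development, had 106, 107, 105 and 99.4 CPM at 44 °C, against 87.4, 85.0, 85.8 and 91.6 CPM at 37 °C. The groups did not overlap (log2 fold change 0.26 ± 0.0534, edgeR adjusted p = 0.00705), and the call held in all 12 fits with 1 library left out. Zfp41 on chromosome 15 had 36.2, 37.4, 37.0 and 35.5 CPM at 44 °C, against 27.5, 29.9, 26.6 and 28.9 CPM at 37 °C (0.37 ± 0.0838, edgeR adjusted p = 0.0107). Zfp948, a KRAB gene of the chromosome 17 array, had 48.2, 57.4, 54.9 and 55.4 CPM at 44 °C, against 43.4, 43.5, 45.4 and 42.7 CPM at 37 °C (0.30 ± 0.0643, edgeR adjusted p = 0.00758). Both were apart in every library and held in all 12 fits.

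**Figure D2:**
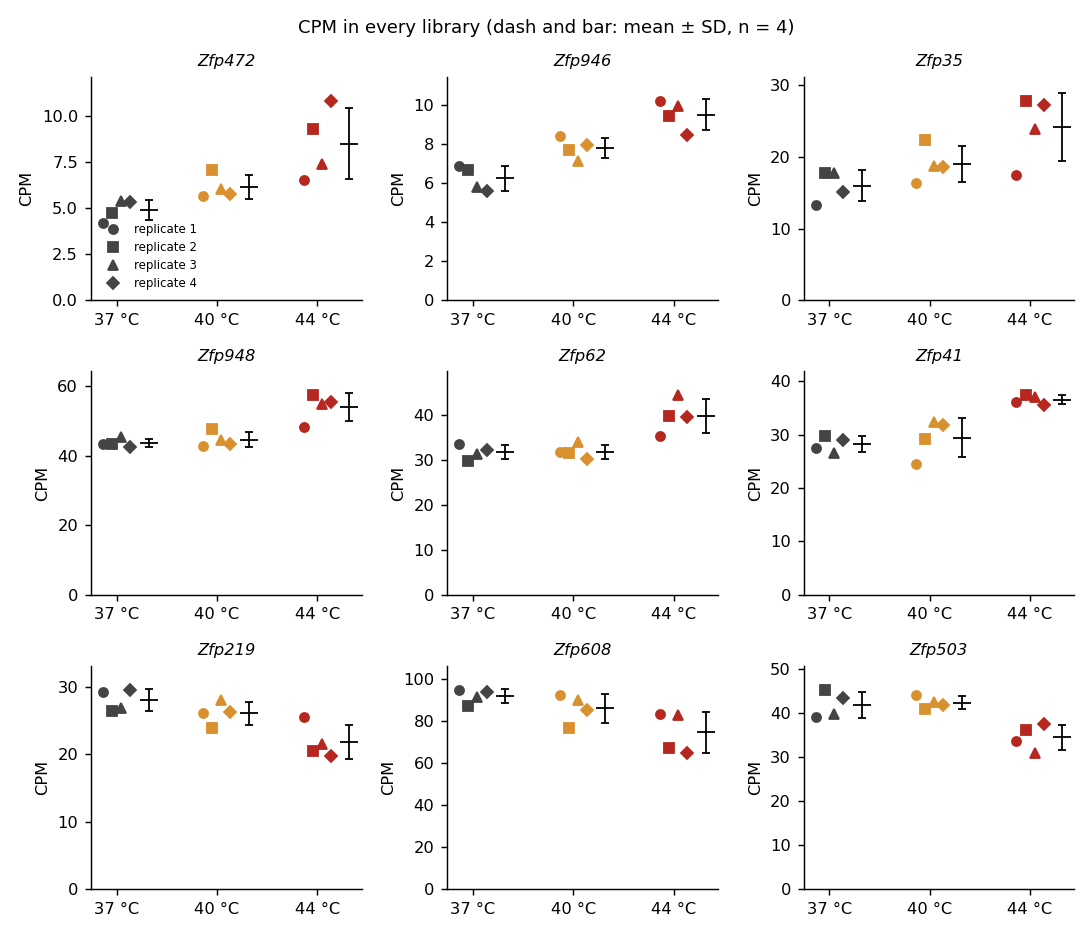
CPM on TMM-scaled library sizes in each of the 12 libraries for 9 genes, with 1 symbol per replicate number, and the mean ± SD of the 4 libraries beside each group. The upper 6 genes are higher at 44 °C than at 37 °C and the lower 3 are lower, and in Zfp35 the circle of 44 °C replicate 1 (17.5 CPM) lies within the 37 °C range.

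Only 3 members were called lower at 44 °C than at 37 °C, and none encoded a KRAB domain. Zfp219, whose protein is known as a partner of SOX9 in chondrocyte differentiation, lies on chromosome 14 (52006077 to 52020733). It had 25.5, 20.5, 21.5 and 19.8 CPM at 44 °C, against 29.4, 26.4, 27.0 and 29.7 CPM at 37 °C. The groups did not overlap, with 44 °C replicate 1 the nearest to 37 °C (log2 fold change -0.36 ± 0.088, edgeR adjusted p = 0.0154). Its call ended when 37 °C replicate 4 (0.0511), 44 °C replicate 2 (0.0518) or 44 °C replicate 4 (0.0534) was left out.

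Zfp503, which encodes a NET-family transcriptional repressor of limb and brain development, had 33.6, 36.1, 30.9 and 37.4 CPM at 44 °C, against 39.1, 45.3, 39.9 and 43.3 CPM at 37 °C. It fell by 0.28 on the log2 scale (SE 0.0732, edgeR adjusted p = 0.0222) and was not called without 37 °C replicates 2 (0.0708) or 4 (0.0636) or 44 °C replicate 3 (0.057). Zfp703, the other NET-family gene, averaged 44.0 ± 6.38 CPM at 44 °C and 50.4 ± 2.75 CPM at 37 °C and did not pass (-0.20 ± 0.0888, edgeR adjusted p = 0.145). Zfp608, on chromosome 18 and a paralogue of Zfp609, had 83.2, 67.2, 82.7 and 64.5 CPM at 44 °C, against 94.8, 87.2, 91.1 and 93.7 CPM at 37 °C. Its log2 fold change was -0.30 ± 0.0849 (edgeR adjusted p = 0.0308), lost without 37 °C replicates 1 or 4 or 44 °C replicates 2 or 4 (0.0776 to 0.0984). Zfp609 itself gave 0.04 ± 0.0512 (edgeR adjusted p = 0.633).

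The KRAB genes named here for a known role did not pass the test at 44 °C against 37 °C. They were picked by hand, and other KRAB genes with a known target were not surveyed. Zfp57 and Zfp445, which keep genomic imprints through TRIM28, gave log2 fold changes of 0.14 ± 0.106 (edgeR adjusted p = 0.387) and 0.16 ± 0.0664 (adjusted p = 0.126) at 44 °C against 37 °C. Zfp445, named here for that role outside the naming rule, was the KRAB gene with the highest mean, 120 CPM. Zfp568, known for repression of a placental Igf2 transcript, had 30.3, 45.2, 32.4 and 46.0 CPM at 44 °C, against 21.8, 27.1, 35.2 and 30.1 CPM at 37 °C. The groups overlapped and the difference was not called (0.43 ± 0.158, edgeR adjusted p = 0.0817). Zfp809, which silences retroviral DNA in embryonic cells, gave 0.06 ± 0.106 (adjusted p = 0.723), and Zfp60, reported as a negative regulator of cartilage differentiation in ATDC5 cells and likewise added for its role, gave 0.26 ± 0.104 (adjusted p = 0.112).

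Genes whose proteins act on RNA, ribosomes or other proteins gave a few calls. Zfp622, a factor of large ribosomal subunit maturation, had 120, 150, 117 and 141 CPM at 44 °C, against 102, 113, 116 and 109 CPM at 37 °C (log2 fold change 0.26 ± 0.0778, edgeR adjusted p = 0.0375). Zfp451, a SUMO ligase, had 106, 132, 112 and 124 CPM at 44 °C, against 89.3, 97.8, 108 and 92.2 CPM at 37 °C (0.29 ± 0.0849, edgeR adjusted p = 0.0344). Both were lost without 37 °C replicates 1, 2 or 4 or 44 °C replicates 2 or 4, and Zfp622 also without 40 °C replicate 3, with adjusted p between 0.0516 and 0.131 for Zfp622 and between 0.0732 and 0.117 for Zfp451. In both genes 44 °C replicates 2 and 4 were the highest libraries, and Zfp622 was also not called with only the 37 °C and 44 °C libraries in the fit (0.061). Zfp598 (0.14, adjusted p = 0.255), Zfp207 (0.21, adjusted p = 0.144), the splicing-linked Zfp638 (0.20, adjusted p = 0.0683) and Zfp326 (0.07, adjusted p = 0.715) were not called by edgeR, nor was Zfp106 (0.06, adjusted p = 0.333).

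Zfp36 encodes tristetraprolin, a CCCH-finger protein that brings AU-rich mRNAs to deadenylation, and it is an immediate early gene. It had 24.6, 18.6, 22.9 and 17.6 CPM at 44 °C, against 27.7, 21.2, 22.5 and 22.4 CPM at 37 °C, which overlapped (log2 fold change -0.17 ± 0.129, edgeR adjusted p = 0.402). Of 19 tested genes of a list of its family and decay partners, 2 rose at 44 °C against 37 °C, the decapping genes Dcp1a (0.25, adjusted p = 0.0366) and Dcp2 (0.32, adjusted p = 0.00194), and 1 fell, the paralogue Zfp36l2 (-0.15, adjusted p = 0.0448). The list's median was 0.06. Among all 10049 protein-coding genes at 5 CPM or more, 8.83% were called higher and 8.61% lower in this contrast, with a median of 0.02. The counts of this list are near these shares, and no list was tested against them. Of 15 immediate early genes, none rose and Junb, Klf2 and Klf4 fell.

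Several other transcription factors without KRAB and with a known role were not called at 44 °C against 37 °C. Zfp148 had 0.03, Zfp384 0.07, Zfp217 -0.05, Zfp335 0.04 and Zfp91 0.04 on the log2 scale, with edgeR adjusted p of 0.744, 0.590, 0.527, 0.749 and 0.789. Zfp281, a regulator of pluripotency genes, had -0.15 (adjusted p = 0.147). Zfp143, which binds many promoters and loop anchors, had 0.26 (adjusted p = 0.065), and Zfp410, an activator of Chd4, had 0.15 (adjusted p = 0.353). None of these 8 was called, and Zfp292, a large abundant gene, had 0.17 (adjusted p = 0.0676).

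By class, 20 of the 110 KRAB genes (18.2%) were called higher at 44 °C against 37 °C and 0 lower. At an unadjusted p under 0.05 by edgeR the counts were 37 higher and 0 lower, where 15.7% of all genes were higher and 15.2% lower. Of the 100 genes without KRAB, 12 were called higher and 3 lower. These counts moved with single libraries. So did the share of all genes called higher, 2.77% without 37 °C replicate 1 and 11.7% without 44 °C replicate 1. Without 44 °C replicate 1, 35 KRAB genes and 23 others were called higher. Without 44 °C replicate 2, or without replicate 4, there were 8 KRAB genes and 6 others, and without 44 °C replicate 3, or 40 °C replicate 3, 13 KRAB genes. Without 37 °C replicates 1, 2 or 4 there were 9, 8 and 12 KRAB genes and 8, 8 and 5 others. The median log2 fold change was 0.18 for KRAB genes, with 92 of 110 above 0, and 0.08 for the others, with 69 of 100 above 0. Among all 10049 protein-coding genes at 5 CPM or more, 8.83% were called higher and 8.61% lower, with a median of 0.02. KRAB genes that bear other names gave 13 of 73 called higher and 0 lower, with a median of 0.27. These comparisons between classes are descriptions, and the difference between classes was not tested.

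Other named families of DNA-binding zinc-finger genes at the same level limit are given beside them, and their difference from the Zfp genes was not tested. Of 34 Zbtb genes 4 were called higher and 5 lower, with a median log2 fold change of 0.07. Of 14 Zscan and Zkscan genes none was called by edgeR in either direction, and the median was 0.08. At an unadjusted p under 0.05, 2 of them were higher (15.7% of all genes) and 0 lower (15.2% of all genes). Of 17 Klf and Sp genes 0 were called higher and 5 lower, with a median of -0.23. Zfp genes under the level limit gave 2 higher and 0 lower of 88 tested, with a median of 0.13 and a median SE of 0.248, against 0.103 for the members.

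**Figure D3:**
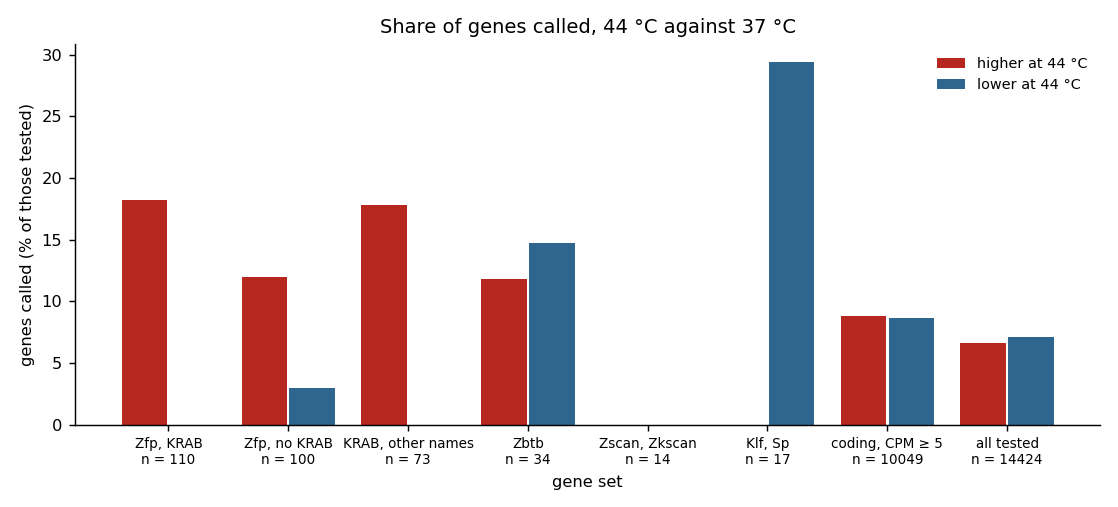
Bars give the share of genes called higher or lower at 44 °C against 37 °C, in percent of the genes tested in each set, with the set size under each pair. The 110 KRAB members have 18.2% higher and none lower, and the Klf and Sp genes 29.4% lower and none higher. The 73 KRAB genes of other names were taken without the limit of 5 CPM.

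The classes were also set side by side within bins of similar level. In members of 5 to 10 CPM the median log2 fold change at 44 °C against 37 °C was 0.14 for 37 KRAB genes and 0.22 for the 10 others. Between 10 and 20 CPM it was 0.18 for 43 KRAB genes and 0.04 for 18 others, and between 20 and 50 CPM 0.19 for 26 KRAB genes and 0.06 for 40 others. At 50 CPM and above it was 0.24 for 4 KRAB genes and 0.07 for 32 others. The order of the classes in the lowest level bin was thus the opposite of that in the bins above it.

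The members' summed level put the libraries in a similar picture. The 210 genes summed to 6569 ± 31.9 CPM at 37 °C, 6674 ± 102 CPM at 40 °C and 7108 ± 202 CPM at 44 °C (SD, n = 4 each, library totals). KRAB genes alone summed to 1887 ± 15.5, 1923 ± 44.8 and 2148 ± 105 CPM at 37 °C, 40 °C and 44 °C. The 4 libraries at 44 °C had summed levels of 6838, 7300, 7079 and 7215 CPM in the order of their replicate numbers, all above the highest 37 °C library (6606 CPM). Replicate 1 was the lowest of the 44 °C group in 100 of the 210 members and in 23 of the 32 called higher. It was also the lowest on the within-group axis, whose part in the result was not tested beyond its use as a covariate.

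**Figure D4:**
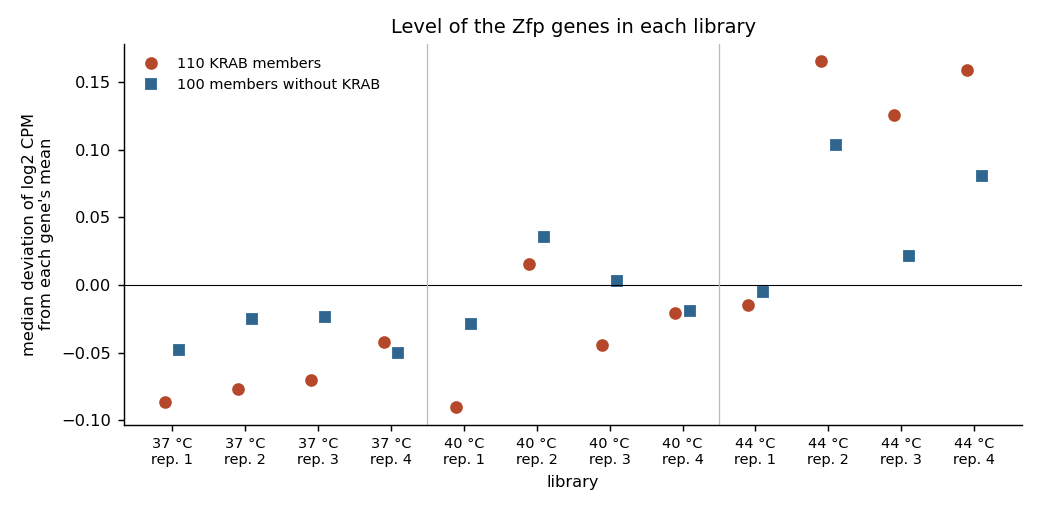
For each library, the median over the 110 KRAB members and over the 100 other members of the deviation of log2 CPM from the gene's mean over the 12 libraries. The 44 °C replicates 2, 3 and 4 lie highest for KRAB genes, between 0.13 and 0.17, while 44 °C replicate 1 lies at -0.01.

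At 40 °C no member was called against 37 °C. By edgeR's quasi-likelihood test 0 of the 210 passed in either direction, as did 0% of all 14424 genes, and DESeq2 called 0 as well. At an unadjusted p under 0.05, 9 members were higher (2.11% of all genes) and 4 lower (3.1% of all genes). The median log2 fold change was 0.04, with 130 of 210 above 0 (49.7% of all genes). Groups did not overlap for 11 members in the higher direction (5.24%, against 1.61% of all genes) and 4 in the lower (2.23% of all genes). Zfp946 had 8.41, 7.73, 7.13 and 7.99 CPM at 40 °C, all above its 37 °C libraries (0.32 ± 0.115, edgeR adjusted p = 0.823). Zfp472 and Zfp560, with 0.33 each, were likewise apart at 40 °C and not called.

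Between 44 °C and 40 °C, 5 members were called higher (2.38%, against 1.88% of all genes) and 2 lower (0.952%, against 3.14% of all genes). In either direction 5.02% of all genes were called, and the members' share in the higher direction is near the background. With only the libraries of the 2 groups in the fit, all 7 lost their calls. Groups did not overlap for 19 members in the higher direction (5.28% of all genes) and 4 in the lower (5.44% of all genes). The median log2 fold change was 0.10, with 166 of 210 above 0 (52.2% of all genes). The contrasts at 44 °C share their libraries, so they are not independent of each other, and 4 of the 7 genes were also called against 37 °C.

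Zfp760, a KRAB gene with 16 fingers in the chromosome 17 array, had the largest called rise over 40 °C. It had 8.99, 10.2, 9.37 and 8.75 CPM at 44 °C, against 5.48, 6.21, 7.39 and 7.13 CPM at 40 °C (log2 fold change 0.51 ± 0.116, edgeR adjusted p = 0.0203), and lost its call without 40 °C replicate 1 (0.0718) or 44 °C replicate 2 (0.0688). Its 40 °C libraries all lay below its 37 °C libraries of 7.73 to 8.44 CPM, and it was not called against 37 °C at 40 °C (-0.30, edgeR adjusted p = 0.823) or at 44 °C (0.21, adjusted p = 0.230). Zfp606, whose human counterpart is reported to interact with SOX9, had 15.1, 14.4, 14.9 and 13.7 CPM at 44 °C, against 11.0, 11.9, 12.5 and 10.2 CPM at 40 °C (0.35 ± 0.095, edgeR adjusted p = 0.0478). That call was lost when any 1 of the 12 libraries was left out (adjusted p 0.0504 to 0.152).

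The other calls over 40 °C were of genes that also rose or fell against 37 °C, apart from Zfp513. Zfp62 averaged 39.7 ± 3.72 CPM at 44 °C and 31.8 ± 1.59 CPM at 40 °C (0.32 ± 0.0756, edgeR adjusted p = 0.0232), Zfp41 had 0.31 (adjusted p = 0.0462) and Zfp948 0.27 (adjusted p = 0.0232). Each lost its call in several leave-outs, Zfp62 without 40 °C replicates 1 or 4 or 44 °C replicates 2, 3 or 4 (0.0571 to 0.0799) and Zfp948 without 40 °C replicates 1, 3 or 4 or 44 °C replicates 2, 3 or 4 (0.0618 to 0.0862). Zfp41 kept it only without 40 °C replicate 3 or 44 °C replicate 1 (0.0569 to 0.122 otherwise). On the lower side, Zfp503 had 33.6, 36.1, 30.9 and 37.4 CPM at 44 °C, against 44.2, 40.8, 42.6 and 41.8 CPM at 40 °C (-0.30 ± 0.0732, edgeR adjusted p = 0.03), lost without 40 °C replicates 1, 3 or 4 or 44 °C replicate 3 (0.0615 to 0.0977). Zfp513 had 21.7, 20.3, 18.8 and 20.1 CPM at 44 °C, against 27.2, 25.3, 22.6 and 26.2 CPM at 40 °C (-0.32 ± 0.088, edgeR adjusted p = 0.0461), lost in 8 of the 12 leave-outs, those of 37 °C replicates 2 and 3, 40 °C replicates 1, 2 and 4 and 44 °C replicates 2, 3 and 4 (0.0532 to 0.141). A joint test over the 3 temperatures called 20 members (9.52%, against 8.21% of all genes).

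Part of the genes lay in tandem arrays, while 81 of the 210 had no other member within 1 Mb. Chromosome 7 held 51 of the 210 and chromosome 17 held 26, of which 22 encoded KRAB. Joining members whose neighbour lay within 1 Mb gave 10 runs of at least 5 members, which together held 74 members, 57 of them KRAB. Of these 74, 18 were called higher at 44 °C against 37 °C (24.3%), as were 14 of the 136 outside such runs (10.3%), against 6.58% of all genes and 7.23% of all 705 genes tested on chromosome 17. The difference between genes inside and outside runs was not tested. The largest run, on chromosome 17 from 21008903 to 23599487, held 15 members, all KRAB, with 4 called higher (Zfp52, Zfp948, Zfp758 and Zfp946) and 12 of 15 above 0. The run with the highest median log2 fold change, 0.34, was the 6-gene run on chromosome 17 from 32771236 to 33631779, where Zfp871, Zfp472, Zfp952 and Zfp81 were called higher and Zfp101 and Zfp414 were not. Runs on chromosome 9 (Zfp560, Zfp26 and Zfp266) and chromosome 15 (Zfp41, Zfp623 and Zfp7) each had 3 of 6 members called. The runs differed, since those on chromosome 7, of 10, 8, 7 and 5 members, had 1, 1, 0 and 0 called higher. On chromosome 6 it was 1 of 6 members and on chromosome 13 it was 1 of 5.

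**Figure D5:**
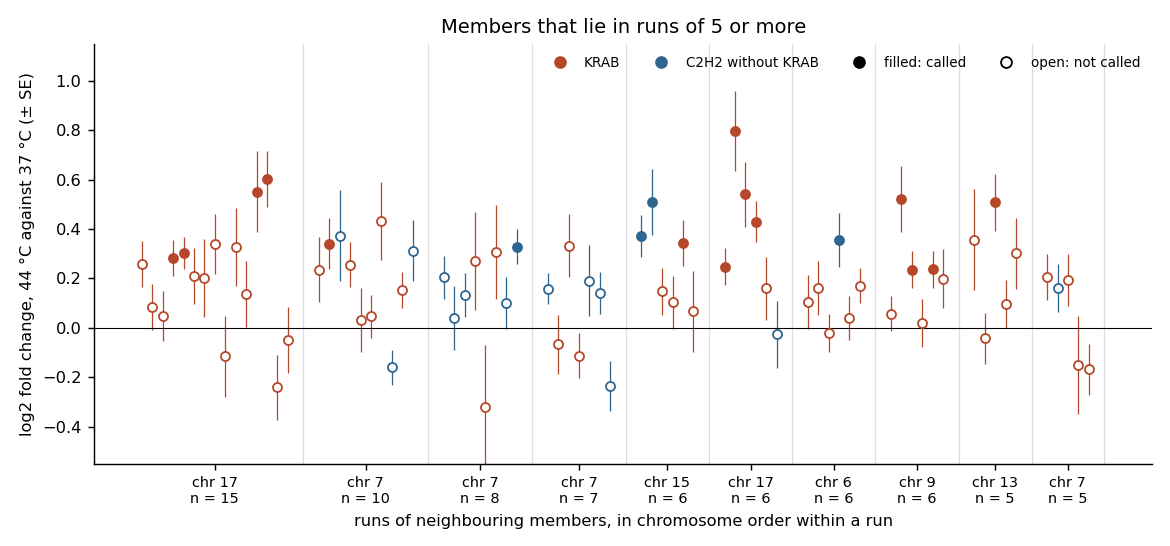
Log2 fold change at 44 °C against 37 °C, with SE, of the 74 members in runs of 5 or more neighbouring members, in chromosome order within each run. Filled points passed the test. The second run on chromosome 17 has 4 filled points of 6, led by Zfp472.

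Neighbours that arose by duplication can share reads. Of the 210 members, 71 shared at least 1 window of 100 bases with a transcript of another gene, and 30 shared over 10% of their longest transcript. Of those 30, 5 were called at 44 °C against 37 °C (Zfp330, Zfp7, Zfp26, Zfp866 and Zfp442). How the submitters counted reads with several alignments, or whether counting used the strand, is not given in the sources used here, so these 5 are reported as uncertain. Zfp106, the highest member, shared 24.2% of its transcript and is uncertain too.

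Promoter windows were found for 174 of the 210 members, of 27025 genes. The heat shock pair GAANNTTC stood in 10.3% of the members' promoters against 9.04% of all, and TTCNNGAA in 6.32% against 9.6%, both strands searched. Of the 25 matched members called higher at 44 °C against 37 °C, GAANNTTC stood in 1 and TTCNNGAA in 2, 1 of them Zfp472. The cAMP response letters TGACGTCA stood in 4.02% of members against 2.03% of all genes, the E-box CACGTG in 9.77% against 8.09%, and the AP-1 letters TGANTCA in 5.17% against 8.97%. KRAB genes had a lower median GC content in this window than the other members, 53.2% against 62.6%.

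The machinery that KRAB proteins recruit was measured alongside. Of 32 tested genes of a list of these factors, 7 rose at 44 °C against 37 °C and 2 fell, with a median log2 fold change of 0.10. Among all protein-coding genes at 5 CPM or more, 8.83% were called higher and 8.61% lower. The list's difference from these shares was not tested. The risers were Cbx5, which encodes HP1 alpha (0.15, adjusted p = 0.0224), the deacetylase gene Hdac2 (0.31, adjusted p = 0.00383), its partner Rbbp4 (0.17, adjusted p = 0.023), the maintenance DNA methyltransferase gene Dnmt1 (0.20, adjusted p = 0.00703), the HUSH complex genes Mphosph8 (0.23, adjusted p = 0.0456) and Fam208a (0.27, adjusted p = 0.00612), and the remodeller gene Smarcad1 (0.30, adjusted p = 0.036). The fallers were Atf7ip, whose protein stabilises SETDB1 (-0.34, adjusted p = 0.0117), and the NuRD remodeller gene Chd3 (-0.33, adjusted p = 0.00379), all by edgeR. Trim28 itself averaged 420 ± 51.6 CPM at 44 °C and 355 ± 27.8 CPM at 37 °C and was not called (0.24 ± 0.0899, edgeR adjusted p = 0.0842). Setdb1 gave 0.02 ± 0.0609 (adjusted p = 0.883).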

How the data were processed

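Polyadenylated RNA was sequenced from 12 libraries. The authors deposited raw counts per gene, 1 column per library, with gene symbols, biotypes, lengths and mm10 coordinates. The submitters' processing notes list featureCounts 1.5.0-p3, HISAT2 2.0.5, StringTie 1.3.3b and fastp, without their order or settings. Counting reads with several alignments affects recently duplicated Zfp genes most.

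The members, the gene lists and the naming rule were chosen with earlier results of these data known. Named are, per contrast, up to 10 called members in each direction with the largest change, the 6 highest members by CPM and by CPM per kb, the 3 genes on each side of the level limit, and members with a well known role. Genes added for their role are marked in the text.

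These counts were tested with edgeR 4.0.16 (R 4.3.3): filterByExpr (minimum count 10, minimum total 15; 14424 genes), TMM scaling, 1 mean per temperature over all 12 libraries, two-sided quasi-likelihood F-tests, Benjamini-Hochberg adjustment over all genes and a threshold of 0.05. The SE is the absolute log2 fold change over the square root of F. The common biological coefficient of variation was 0.102. The code was tested on simulated data. CPM of single genes is on TMM-scaled sizes, while CPM in the membership rule and in sums is on library totals. A count of 0 allows up to 3 counts, 0.154 to 0.184 CPM, counting error only. Pairs of libraries within groups differed by a chi-square of 2.85 to 20.9 per gene, so none was a copy. P-values measure the spread between these cultures.

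KRAB domains were found with a HMMER 3.4 profile (199 seed windows, E-value up to 0.001) and C2H2 fingers by pattern in translations of the GENCODE M21 coding sequences, in place of the RefSeq proteins planned. Promoters are RefSeq's. The alternatives were library totals for scaling, DESeq2 1.42.0, other filters, a fit of the 2 groups alone, the replicate number as a block, the within-group axis as a covariate, a threshold of 0.01, membership at 2 or 10 CPM, and each library left out in turn.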

Additional observations from a re-analysis of the deposited data

Results flagged for a closer look

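Of 144 group values looked at (the 3 temperature groups of each named gene and of the members' sums), 3 had a single library far from the other 3 of its group, where chance sets apart about 1 in 20. Zfp740 had 138.578 CPM in 44 °C replicate 1, against 131.78 to 132.615 CPM in the other 44 °C libraries. Zfp410 had 40.0609 CPM in 44 °C replicate 1, against 53.4408 to 55.4537 CPM in the others, and that library was also the lowest on the within-group axis. Zfp57 had 12.0356 CPM in 40 °C replicate 4, against 9.37621 to 9.63184 CPM in the other 40 °C libraries. None of the 3 genes was called in any contrast.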

How the results depend on the processing

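At 44 °C against 37 °C, the members' median and the count called higher kept their direction under every setting, with 161 members above 0 in each setting other than leave-outs. The count called higher was 72 when the within-group axis was a covariate and 7 at an adjusted p under 0.01, and the count lower was 11 and 0. With the axis, 17.9% of all genes were called higher and 17% lower. The axis is built from the residuals of the genes that are no members, in these same libraries. It shrinks the spread of those genes by construction, so their p-values are too small. The members' adjusted p-values share the adjustment over all genes and are therefore also too small. How far the members' own spread is affected was not tested. With 1 library left out, the count higher ranged from 14 to 58 and the count lower from 0 to 5. In those fits 2.77% to 11.7% of all genes were called higher and 3.86% to 11.2% lower. At 44 °C against 40 °C, the count higher was 10 with library totals, 2 with no filter beyond 1 read, 0 with the 2 groups alone, 37 with the axis, 11 with DESeq2 and 0 at an adjusted p under 0.01, and 0 to 19 in leave-outs. The count lower was 1 with library totals, 1 with no filter, 0 with the 2 groups alone, 7 with the axis and 0 at an adjusted p under 0.01, and 0 to 3 in leave-outs. At 40 °C against 37 °C, 3 members were higher with the axis. The joint test called 79 with the axis, 32 with DESeq2, 0 at an adjusted p under 0.01, and 2 to 45 in leave-outs. For 44 °C against 40 °C, 40 °C against 37 °C and the joint test, the shares of all genes called under these settings are not given. Those member counts therefore cannot be set against a background. The cause of the moves between settings was not tested.

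The replicate numbers are shared between temperatures, and some same-numbered libraries deviated together in part. Correlations of deviations were 0.366 for replicate 1 at 44 °C and 37 °C and 0.319 for replicate 2 at 44 °C and 40 °C. All others lay between -0.207 and 0.104. The main fit did not take same-numbered libraries as pairs, and whether they are linked was not tested. With the replicate number as a block, 41 members were called higher and 4 lower at 44 °C against 37 °C, 0 and 0 at 40 °C against 37 °C, and 7 and 2 at 44 °C against 40 °C, with 27 in the joint test. Of the 45 called, 34 were the same genes as in the unblocked fit. At 44 °C against 37 °C the blocked fit called 8.78% of all genes higher and 8.94% lower, and its shares in the other tests are not given.

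Changes of sign were limited to log2 fold changes near 0 that were not called. With library totals, the values at 40 °C against 37 °C were -0.00668 for Zfp292, -0.00389 for Zfp326, -0.0203 for Zfp335, -0.00406 for Zfp410, -0.00402 for Zfp503 and -0.0143 for Zfp809, and -0.000873 for Zfp335 with the axis. At 44 °C against 40 °C they were 0.00777 for Zfp106, 0.0104 for Zfp148, 0.0181 for Zfp384 and 0.00479 for Zfp91 with library totals, and -0.00243 for Zfp598 with the 2 groups alone. Zfp217 gave -0.0044 with no filter, -0.00156 with a filter at a mean of 1 CPM, -0.00939 with the 2 groups alone, -0.000334 with the block and -0.00511 with DESeq2. With 1 library left out, sign changes gave ranges at 44 °C against 37 °C of -0.0110 to 0.0871 for Zfp335 and -0.00938 to 0.0957 for Zfp91, and Zfp609, whose other contrasts are not printed, ran from -0.00548 to 0.0750 over all settings. At 40 °C against 37 °C they were -0.119 to 0.0435 for Zfp36, -0.0298 to 0.0915 for Zfp207, -0.0285 to 0.0645 for Zfp292, -0.0592 to 0.101 for Zfp326, -0.0139 to 0.0183 for Zfp335, -0.0564 to 0.0767 for Zfp410, -0.0157 to 0.0553 for Zfp503, -0.0640 to 0.0497 for Zfp809 and -0.00899 to 0.0993 for Zfp91. At 44 °C against 40 °C they were -0.0363 to 0.000212 for Zfp106, -0.0505 to 0.0222 for Zfp148, -0.0221 to 0.0209 for Zfp217, -0.0316 to 0.123 for Zfp326, -0.0113 to 0.0867 for Zfp335, -0.0576 to 0.0567 for Zfp384, -0.0660 to 0.0601 for Zfp598, -0.148 to 0.0235 for Zfp703, -0.0991 to 0.00405 for Zfp830 and -0.0681 to 0.0435 for Zfp91.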
